A study of Mus musculus with 6 samples.

Results

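The IFIT genes (interferon-induced proteins with tetratricopeptide repeats) are a small family of antiviral genes that lie side by side on mouse chromosome 19. Members were taken as every gene of the deposited expression table whose symbol starts with Ifit followed by a digit, which leaves out the unrelated Ifitm genes. This gave 6 of 13706 listed genes, namely Ifit1, Ifit2, Ifit3, Ifit3b, Ifit1bl1 and Ifit1bl2. RNA was measured in cultured primary mouse dermal fibroblasts, with 2 libraries in each of 3 groups. KO + H-151 cells carried R26-CAG-CreER, a tamoxifen-activated Cre recombinase expressed from the ROSA26 locus, which is active in most cell types, together with Yap1 fl/fl and Wwtr1 fl/fl, and received 1 µM H-151, which the labels name as a STING inhibitor. KO cells had the same genotype and received no H-151. Control cells were Yap1 fl/fl and Wwtr1 fl/fl without the Cre. All 3 groups were kept for 72 hr in 1 µM 4OH-Tamoxifen. Presence of the Cre and loss of both genes coincide in this design and cannot be told apart, and control cells given H-151 were not analysed here. The labels give no age of the animals and leave unsaid whether replicates of a group were separate animals or cultures, so p-values measure the spread between these libraries only.

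IFIT proteins are built of tetratricopeptide repeats, helical units that form pockets and binding surfaces, and act in the cytosol. Their genes are nearly silent in resting cells and are switched on by type I interferon, whose receptor activates a transcription factor complex that holds STAT2 and IRF9, and some of them also directly by IRF3. IFIT1 binds RNA whose cap lacks the ribose methylation that host messengers carry and blocks its translation. In human cells IFIT3 binds IFIT1 and stabilises it. In mice Ifit2 restricts several RNA viruses, among them viruses that infect neurons. Ifit3b is a close copy of Ifit3. STING, the target of H-151, is the adaptor through which the DNA sensor cGAS turns on the interferon beta gene.

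In the GENCODE M21 annotation of GRCm38, the build also called mm10, all 6 members were protein coding and together spanned 99.3 kb of chromosome 19. Ifit2 (ENSMUSG00000045932) lies at chr19:34550694-34576419 on the plus strand and Ifit3 (ENSMUSG00000074896) follows at chr19:34583531-34588731 on the same strand. Ifit1bl1 (ENSMUSG00000079339) is at chr19:34592891-34601956 on the minus strand, Ifit3b (ENSMUSG00000062488) at chr19:34607970-34613401 on the plus strand, and Ifit1bl2 (ENSMUSG00000067297) at chr19:34617049-34640743 on the minus strand. Ifit1 (ENSMUSG00000034459) closes the cluster at chr19:34640871-34650009 on the plus strand. Ifit1bl2 and Ifit1 point away from each other, and their annotated starts are 128 bases apart.

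Promoter windows from RefSeq, 250 bases before to 50 bases after each start on GRCm38.p6, were searched on both strands for GAAANNGAAA, the core of the interferon-stimulated response element that this interferon-activated complex recognises. The stretches that hold the matches are shown because 5 of 6 members hold one and because some members share them letter for letter. Each is written along its own gene's strand, with the matched letters in capitals. On the strand shown, a match in the opposite orientation reads TTTCNNTTTC.
Ifit1, chr19:34640765-34640833, plus strand: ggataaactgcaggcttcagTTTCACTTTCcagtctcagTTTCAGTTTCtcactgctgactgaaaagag
Ifit1bl2, chr19:34640765-34640833, minus strand: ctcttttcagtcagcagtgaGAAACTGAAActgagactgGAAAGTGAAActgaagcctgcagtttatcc
Ifit3, chr19:34583353-34583436, plus strand: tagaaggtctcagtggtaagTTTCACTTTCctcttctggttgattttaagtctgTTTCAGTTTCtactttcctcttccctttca
Ifit3b, chr19:34607749-34607832, plus strand: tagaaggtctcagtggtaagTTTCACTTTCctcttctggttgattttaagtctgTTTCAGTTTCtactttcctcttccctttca
Ifit1bl1, chr19:34602043-34602092, minus strand: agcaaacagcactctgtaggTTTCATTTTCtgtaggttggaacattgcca
The Ifit1 and Ifit1bl2 stretches are the 2 strands of the same 69 bases, since the windows of this back-to-back pair overlap by 245 bases. The Ifit3 and Ifit3b stretches were identical over all 84 bases, and their whole windows shared 94.5% of 274 aligned bases. In Ifit1 the matches began 104 and 85 bases before the start, in Ifit3 156 and 122 bases before it, and in Ifit3b 188 and 154 bases before it. Ifit1bl1 held 1 match in each of its 2 windows. Ifit2 had no match in its 2 windows. These begin at chr19:34550444 and chr19:34550838, at the 5' end of a gene of 25.7 kb, and the rest of the gene was not searched. Of all 27025 genes with a window 3.99% held at least 1 match and 0.266% held 2 or more in 1 window, while 5 of 6 members held at least 1. A match is a run of letters and not a measured binding site.

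Libraries were 3' tag libraries with 12444986 to 15308100 reads in the listed genes. Values are scaled CPM, the authors' CPM on an effective library size, and 1 read was worth 0.0625 to 0.0871 scaled CPM. Since 3' tags are not divided by gene length, values are compared between groups for each gene, and between genes only as shares of tags. Wwtr1, which encodes TAZ, averaged 3.54 scaled CPM in KO + H-151, 4.91 in KO and 216 in control libraries, and Yap1 averaged 43.9, 67.4 and 125 in the same order. Which exons the Cre removes is not given in the sources used here, so 3' tags of Yap1 need not report its deletion. Tags of the 8 fibroblast markers summed to 19509 to 21132 scaled CPM in KO + H-151, 31509 to 33279 in KO and 26997 to 27440 in control libraries. Most of them were tags of the collagen genes Col1a1, Col1a2 and Col3a1. All 10 macrophage markers were above 0 in every library, while 4 of 5 keratinocyte markers and, of the plasmacytoid dendritic cell markers, Siglech and Ly6d were not in the table. Endothelial markers summed to at most 19.7 and the 4 listed melanocyte markers to at most 61.0 scaled CPM in any library.

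The comparison of KO with control cells asks what the YAP and TAZ knockout did to the family. A gene is said to be called where limma, a linear model over the whole table, gave it an adjusted p under 0.05. All 6 members were called higher in KO cells, against 18.2% of the 13648 genes tested (32.4% were called in either direction). Ifit1 had 13399 and 13405 scaled CPM in the KO libraries, against 75.1 and 97.9 in the control libraries. Both KO libraries lay far above both control libraries, and the ratio of means was 155. Log2 changes were taken as KO minus control on log2(scaled CPM + 1), and for Ifit1 the change was 7.27 ± 0.16 (SE; limma adjusted p = 2.44e-15). By this measure it ranked 7 among all genes tested, and by mean level in KO cells it ranked 4 of 13706, against 2293 in control cells. In bulk RNA, a change in the number of expressing cells and a change in RNA per cell cannot be told apart.

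Ifit3 had 2994 and 3347 scaled CPM in KO libraries, against 39.1 and 43.5 in control libraries. Its log2 change was 6.23 ± 0.08 (SE; limma adjusted p = 5.89e-18), the most precisely measured of the family. Ifit3b had 755 and 827 scaled CPM in KO libraries, against 7.05 and 10.02 in control libraries, and its log2 change was 6.39 ± 0.12 (limma adjusted p = 6.47e-16). For both copies each KO library lay far above each control library. Ifit2 had 833 and 784 scaled CPM in KO libraries, against 11.2 and 15.4 in control libraries, with a log2 change of 5.84 ± 0.11 (limma adjusted p = 6.47e-16). The ratios of means were 76.7 for Ifit3, 92.7 for Ifit3b and 60.8 for Ifit2, so Ifit2 had the smallest ratio of the 4 members that were well above the detection limit in control cells.

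The Ifit1bl genes, the members nearest to Ifit1 by sequence, behaved unlike each other. Ifit1bl1 had 178 and 182 scaled CPM in KO libraries, against 0.712 and 1.30 in control libraries, which is 2042 and 2137 reads against 10 and 18 reads. Its log2 change was 6.51 ± 0.17 (SE; limma adjusted p = 2.08e-14), and its KO libraries lay far above the near-zero control libraries. Ifit1bl2 had 2.70 and 2.21 scaled CPM in KO libraries, or 31 and 26 reads, against 0.498 and 0.721 in control libraries, or 7 and 10 reads. Its log2 change was 1.10 ± 0.23 (limma adjusted p = 0.00131) and ranked 701 among genes tested, while the other 5 members ranked between 7 and 16. Ifit1bl2 reached the minimum level for testing only through the 2 KO libraries, so its call had to be a rise if it was called at all. Among the 5 members that passed on other libraries as well, 5 were called higher. The median log2 change of the 6 members was 6.31, against -0.01 over all genes tested. The log2 changes of the lowest members understate their ratios, which were 179 for Ifit1bl1 and 4.03 for Ifit1bl2.

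**Figure D1:**
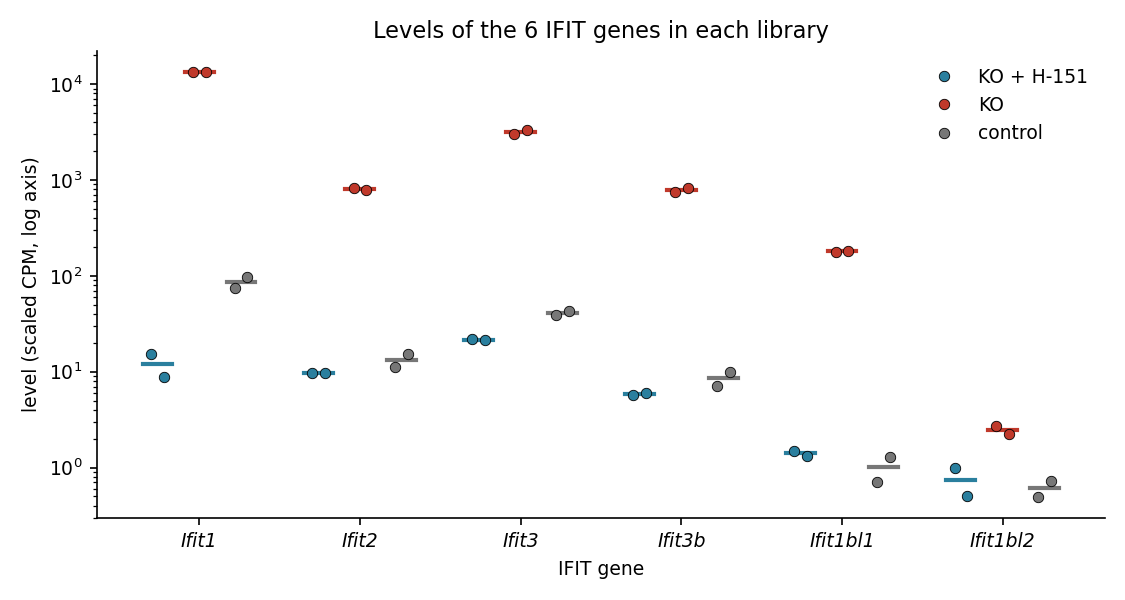
Levels of the 6 IFIT genes in each library, in scaled CPM on a log axis, with KO + H-151, KO and control libraries from left to right and a line at each group mean. Both KO libraries stand above all other libraries for each gene, from 2.21 and 2.70 scaled CPM for Ifit1bl2 up to 13399 and 13405 for Ifit1.

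Macrophage marker tags summed to 1474 to 1490 scaled CPM in KO and 1178 to 1399 in control libraries. Of these 10 markers 3 were called higher and 1 lower in KO cells, against 18.2% and 14.2% of all genes tested. Of the 5 endothelial markers, all at low levels, 1 was called higher and 4 lower in KO cells. The plasmacytoid dendritic cell markers that were listed summed to 987 to 988 scaled CPM in KO and 910 to 917 in control libraries, mostly tags of Tcf4. The part of these cells in the IFIT result was not tested.

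Setting KO + H-151 beside KO cells asks what the STING inhibitor did in cells in which the YAP and TAZ knockout had been triggered. The targeted genes themselves differed between these groups. Yap1 was called lower in KO + H-151 than in KO (log2 change -0.61, limma adjusted p = 8.35e-06). Wwtr1 was called lower too (-0.39, limma adjusted p = 0.0258), a call that 9 alternatives lost. Whether these differences bear on the IFIT levels was not tested. All 6 members were called lower with H-151, against 21.4% of genes tested (40.8% were called in either direction). Ifit1bl2 was testable only through its KO libraries, so its call could only be a fall, and among the other 5 members 5 were called lower. Ifit1 had 15.2 and 8.82 scaled CPM in KO + H-151 libraries, against 13399 and 13405 in KO libraries. Its mean was 1115-fold lower and its log2 change was -10.05 ± 0.16 (SE; limma adjusted p = 3.13e-17), the third deepest fall among all genes tested. Both KO + H-151 libraries lay far below both KO libraries, and by mean level Ifit1 ranked 8477 of 13706 in KO + H-151 cells, against 4 in KO cells.

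Ifit3 had 21.8 and 21.5 scaled CPM in KO + H-151 libraries, against 2994 and 3347 in KO libraries, and fell by 7.13 ± 0.08 on the log2 scale (SE; limma adjusted p = 7.14e-19). Ifit3b had 5.75 and 6.07 scaled CPM in KO + H-151 libraries, against 755 and 827 in KO libraries, and fell by 6.84 ± 0.12 on the log2 scale (limma adjusted p = 1.62e-16). Ifit2 had 9.60 and 9.69 scaled CPM in KO + H-151 libraries, against 833 and 784 in KO libraries, and fell by 6.25 ± 0.11 on the log2 scale (limma adjusted p = 1.62e-16). For these 3 genes both KO + H-151 libraries lay close together and far below both KO libraries. Ifit1bl1 had 1.503 and 1.313 scaled CPM in KO + H-151 libraries, against 178 and 182 in KO libraries, with a log2 change of -6.23 ± 0.17 (limma adjusted p = 2.71e-14). Ifit1bl2 had 0.98 and 0.50 scaled CPM in KO + H-151 libraries, against 2.70 and 2.21 in KO libraries, with a log2 change of -1.001 ± 0.23 (limma adjusted p = 0.00219). The median log2 change of the 6 members was -6.54, against 0.02 over all genes tested. These directions, and those of KO against control, held under each other scaling tried, although total-count scaling moved the median of all genes by -0.15 in KO against control and by 0.16 in KO + H-151 against KO. The balance of calls over all genes moved with it: calls in KO against control were 56.2% higher as deposited, 45.5% with median scaling, 39.1% with quantile normalization and 29.9% with total-count scaling. The same shares in KO + H-151 against KO were 47.5%, 51.4%, 61.9% and 71.2%.

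Macrophage markers moved with H-151. Their tags summed to 3076 to 3800 scaled CPM in KO + H-151 libraries, against 1474 to 1490 in KO libraries. All 10 of 10 were called higher, against 19.4% of all genes tested. Most of these tags were of Lyz2, with 2740 and 2199 scaled CPM in KO + H-151 libraries, against 1042 and 1044 in KO libraries. The defining marker Adgre1 had 30.2 and 26.45 scaled CPM in KO + H-151, against 10.2 and 9.45 in KO libraries. Csf1r, another, had 76.5 and 72.9 in KO + H-151, against 24.6 and 25.5 in KO libraries. Of the 5 endothelial markers, all at low levels, 3 were called higher and 0 lower with H-151. Fibroblast marker tags, mostly of the collagen genes Col1a1, Col1a2 and Col3a1, summed lower in KO + H-151 libraries, as given above. Of the 8 markers 4 were called higher and 4 lower, against 19.4% and 21.4% of all genes tested. Pdgfra had 144 and 140 scaled CPM in KO + H-151 libraries, against 65.8 and 70.3 in KO libraries. Whether these shifts bear on the IFIT levels was not tested.

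**Figure D2:**
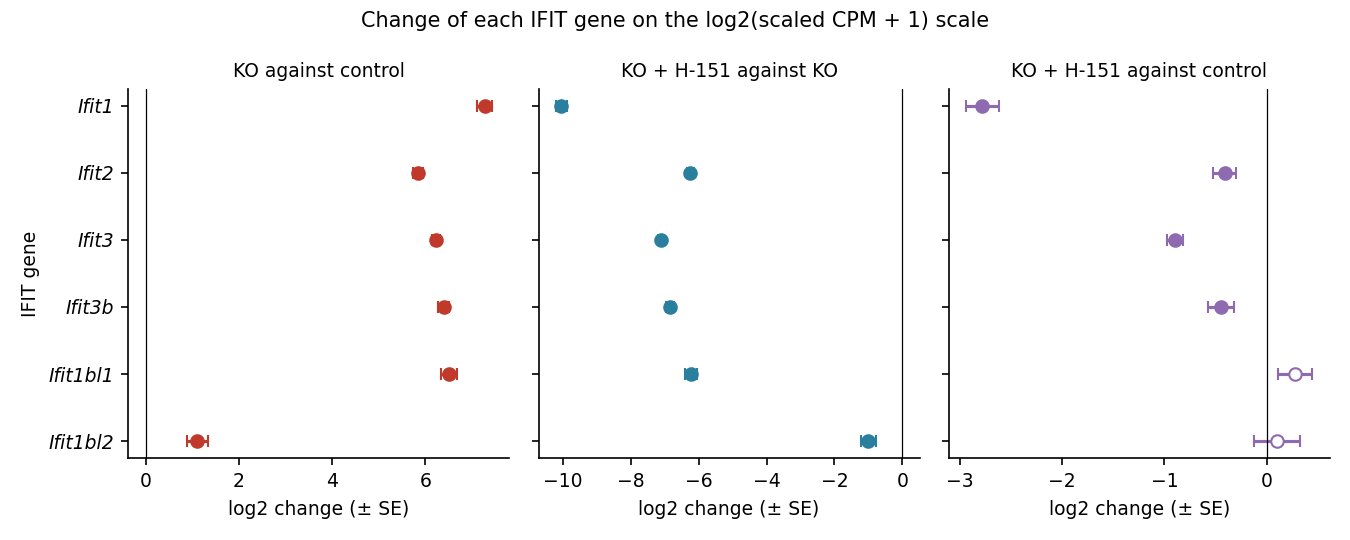
Log2 change of each IFIT gene with its standard error in the 3 comparisons, on the log2(scaled CPM + 1) scale, filled where they passed the test. Changes run from 1.10 to 7.27 for KO minus control, from -10.05 to -1.001 for KO + H-151 minus KO, and from -2.78 to 0.28 for KO + H-151 minus control.

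Setting KO + H-151 beside control cells asks how near the treated knockout came to cells without the Cre. It shares its libraries with the other comparisons and is no separate evidence for them. Here 4 of 6 members were called lower, against 11.4% of genes tested (22.9% were called in either direction), and 0 were called higher. Ifit1 had 15.2 and 8.82 scaled CPM in KO + H-151 libraries, against 75.1 and 97.9 in control libraries. Both KO + H-151 libraries lay below both control libraries, the mean was 7.20-fold lower, and the log2 change was -2.78 ± 0.16 (SE; limma adjusted p = 6.07e-09). Ifit3 had 21.8 and 21.5 scaled CPM in KO + H-151 libraries, against 39.1 and 43.5 in control libraries. Its mean was 1.91-fold lower, with a log2 change of -0.90 ± 0.08 (limma adjusted p = 3.47e-07), and the groups were again apart.

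Differences for the other members were smaller. Ifit2 had 9.60 and 9.69 scaled CPM in KO + H-151 libraries, against 11.2 and 15.4 in control libraries, with a log2 change of -0.41 ± 0.11 (SE; limma adjusted p = 0.0152). Ifit3b had 5.75 and 6.07 scaled CPM in KO + H-151 libraries, against 7.05 and 10.02 in control libraries, with a log2 change of -0.45 ± 0.12 (limma adjusted p = 0.015). For both genes the groups did not overlap, but both calls were lost when control replicate 2 was left out (adjusted p = 0.255 for Ifit2 and 0.239 for Ifit3b), when KO replicate 1 (0.0640 and 0.0647) or KO replicate 2 (0.0637 and 0.0657) was left out, when only the 2 groups were fitted (0.119 and 0.126) and when the variance prior had no trend (0.121 and 0.113). Ifit1bl1 had 1.503 and 1.313 scaled CPM in KO + H-151 libraries, against 0.712 and 1.30 in control libraries, and did not pass the test (log2 change 0.28 ± 0.17, limma adjusted p = 0.273). Ifit1bl2 had 0.98 and 0.50 scaled CPM in KO + H-151 libraries, against 0.498 and 0.721 in control libraries, where the groups overlapped (log2 change 0.10 ± 0.23, limma adjusted p = 0.802). With 8 to 23 reads of these 2 genes per KO + H-151 library and 7 to 18 per control library, a small difference was not detectable. The median log2 change over the 6 members was -0.43, against 0.00 over all genes tested. Macrophage markers were again called higher in 10 of 10 cases, against 11.5% of all genes tested. They summed to 3076 to 3800 scaled CPM in KO + H-151 and 1178 to 1399 in control libraries. Their part in the IFIT values was not tested.

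Across the 3 conditions the order of levels for Ifit1 and Ifit3 was KO, then control, then KO + H-151, with each step passing the test. Ifit2 and Ifit3b had the same order, but their last step rests on calls that several alternatives lost. For Ifit1bl1 and Ifit1bl2 KO was the highest, and KO + H-151 and control did not differ by the test, although for Ifit1bl1 both KO + H-151 libraries lay just above both control libraries.

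The makeup of the family's tags also differed between conditions. All IFIT tags together were 0.00574% and 0.005004% of the reads in KO + H-151 libraries, 1.68% and 1.72% in KO libraries and 0.0139% and 0.0174% in control libraries. These were 840 and 766 reads in KO + H-151, 208582 and 217786 in KO and 1876 and 2344 in control libraries. The 95% Wilson intervals of these shares lay between 0.00466% and 0.00614% in KO + H-151, between 1.67% and 1.72% in KO and between 0.0133% and 0.0181% in control libraries, so counting error does not bridge the groups. Within the family, Ifit1 gave 27.7% and 18.4% of tags in KO + H-151 (95% Wilson intervals 24.8% to 30.9% and 15.8% to 21.3%), 73.8% and 72.3% in KO and 56.2% and 58.0% in control libraries. Ifit3 gave 39.8% and 44.9% in KO + H-151, 16.5% and 18.05% in KO and 29.3% and 25.8% in control libraries. Ifit1 was therefore the leading source of tags in KO and control cells, and Ifit3 in KO + H-151 cells. Ifit2 gave 17.5% and 20.2% of tags in KO + H-151, 4.59% and 4.23% in KO and 8.37% and 9.13% in control libraries. Ifit1bl1 stayed under 3% in each library. For these shares the groups did not overlap.

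**Figure D3:**
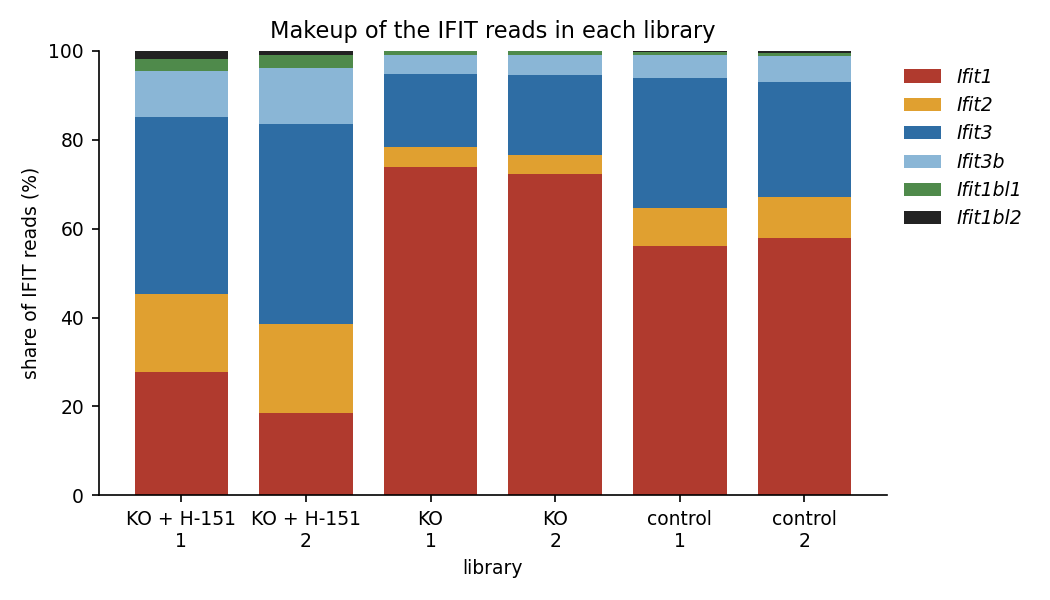
Share of the family's reads taken by each IFIT gene in each library, in percent, with KO + H-151, KO and control libraries from left to right. Ifit1 takes 72.3% and 73.8% in KO libraries, against 56.2% and 58.0% in control libraries, and Ifit3 takes the most in KO + H-151 libraries with 39.8% and 44.9%.

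Ratios of reads between 2 members within a library do not depend on the scaling. The ratio of Ifit1 to Ifit3 reads was 0.698 and 0.410 in KO + H-151, 4.48 and 4.01 in KO and 1.92 and 2.25 in control libraries. The ratio of Ifit1 to Ifit2 reads was 1.59 and 0.910 in KO + H-151, 16.1 and 17.1 in KO and 6.71 and 6.35 in control libraries. Both ratios were highest in KO and lowest in KO + H-151, with no overlap between groups, so Ifit1 tags changed by a larger factor than Ifit2 or Ifit3 tags in each comparison. For Ifit3 to Ifit3b the ratio was 3.80 and 3.55 in KO + H-151, 3.97 and 4.05 in KO and 5.55 and 4.35 in control libraries. This ratio varied far less than the levels of either copy, and the control libraries had the 2 highest values.

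The split between Ifit3 and Ifit3b is uncertain, because their longest GENCODE transcripts shared 97.8% of 1700 aligned bases and how reads mapping to both were treated is not given in the sources used here. Of the 50-base words in the last 500 bases of Ifit3, where 3' tags fall, 14.9% also stand somewhere in the Ifit3b transcript, while 0 of those in the last 500 bases of Ifit3b stand in Ifit3. The sum of the pair does not depend on how shared reads are divided, but would change if they were dropped or counted for both. It was 27.57 and 27.58 scaled CPM in KO + H-151, 3749 and 4174 in KO and 46.1 and 53.5 in control libraries. Ifit1bl1 and Ifit1bl2 shared 89.3% of 2210 aligned bases, and 9.09% of such words at the end of Ifit1bl1 stand in Ifit1bl2. The other pairs shared 54.9% to 68.4% and no such word.

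Ifit1 and Ifit1bl2 start 128 bases apart and share the printed matches, yet differed widely in tags. The ratio of Ifit1 to Ifit1bl2 reads was 15.5 and 17.6 in KO + H-151, 4964 and 6054 in KO and 150.6 and 135.9 in control libraries. The RefSeq span of Ifit1bl1 runs over chr19:34592888-34662981 on the minus strand and covers Ifit3b, Ifit1bl2 and Ifit1. Neither the annotation used for counting nor its strand setting is given, so some tags counted for one gene could belong to an overlapping one. Ifit1bl1 had 2042 and 2137 reads in the KO libraries, where Ifit1 had 153888 and 157404.

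Genes whose pattern over the 6 libraries was most like that of each member were found by the Euclidean distance between mean-centred log2 profiles, among 10500 genes with a mean of at least 5 scaled CPM. For Ifit1 they were Iigp1 at 1.82, Cmpk2 at 1.997 and Cxcl9 at 2.02, where the median distance over all candidates was 10.4. For Ifit2 they were Igtp at 0.325, Cd274 at 0.440 and Gm4951 at 0.494, with a median of 7.002. Ifit3 was nearest to Igtp at 0.673, then Mx2 and F830016B08Rik, both at 0.679, and Ifit3b to Igtp at 0.616, Gm4841 at 0.773 and Mx2 at 0.838. Ifit1bl1 was nearest to Gm12250 at 0.732, Cd274 at 0.817 and Igtp at 0.972. Igtp, an interferon-inducible GTPase, was thus among the nearest 3 for 4 members, and averaged 6.04 scaled CPM in KO + H-151, 625 in KO and 10.1 in control libraries. Ifit1bl2 had Armc8 at 0.192 and Rnf115 at 0.224 among its 3 nearest, where the median distance was 1.33. Between members the smallest distance was 0.508, for Ifit3 and Ifit3b, and the largest 9.25, for Ifit1 and Ifit1bl2. These distances rest on 6 libraries that share their groups and carry no test.

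Genes beside the cluster on the chromosome were followed as well. The annotation holds 29 other genes that start within 500 kb of the cluster ends, 11 of them protein coding, and 8 were listed and tested. In KO against control 4 of the 8 were called higher and 2 lower, against 18.2% and 14.2% of all genes tested, with a median log2 change of 0.53, far under that of the family. Ch25h, which makes the antiviral oxysterol hydroxycholesterol, lies 76.9 kb before the cluster, measured between their lowest bases, and averaged 12.7 ± 2.56 scaled CPM in KO + H-151, 211 ± 0.165 in KO and 25.5 ± 2.32 in control libraries (SD, n = 2 each). Its log2 change was 3.01 ± 0.11 in KO against control (SE; limma adjusted p = 2.61e-12) and -3.97 ± 0.11 in KO + H-151 against KO (limma adjusted p = 5.67e-14). Fas, a death receptor, changed by 0.82 and -1.15 in the same 2 comparisons, and Stambpl1, a deubiquitinase, by 0.87 and -1.28, all called. Lipa, the lysosomal acid lipase and the nearest of these genes, averaged 216 ± 7.46 scaled CPM in KO + H-151, 203 ± 8.04 in KO and 126 ± 3.90 in control libraries. It was called higher in KO than in control (log2 change 0.68, limma adjusted p = 5.80e-07), while KO + H-151 and KO did not differ by the test (log2 change 0.09, limma adjusted p = 0.300). Of the 8, 5 were called lower in KO + H-151 against KO and 1, Pank1, a pantothenate kinase, higher, against 21.4% lower and 19.4% higher over all genes tested. Pank1 and Kif20b, a kinesin, were called lower in KO against control (log2 changes -0.39 and -0.38), calls that were lost by DESeq2 and without control replicate 1, control replicate 2 or KO replicate 2, for Pank1 also without KO replicate 1 and for Kif20b also when the variance prior had no trend (adjusted p of 0.0635 to 0.195 for Pank1 and 0.0816 to 0.385 for Kif20b). Acta2, smooth muscle actin, and the unnamed transcript Gm26902 were not called in KO against control (log2 changes 0.12 and 0.39) and were called lower in KO + H-151 against KO (-0.46 and -0.71), calls that several alternatives lost. For Acta2 these were quantile normalization, where the change was -0.106 (adjusted p = 0.465), and leaving out KO replicate 1 (0.0597), and for Gm26902 they were DESeq2 (0.0669) and leaving out KO replicate 2 (0.0882).

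**Figure D4:**
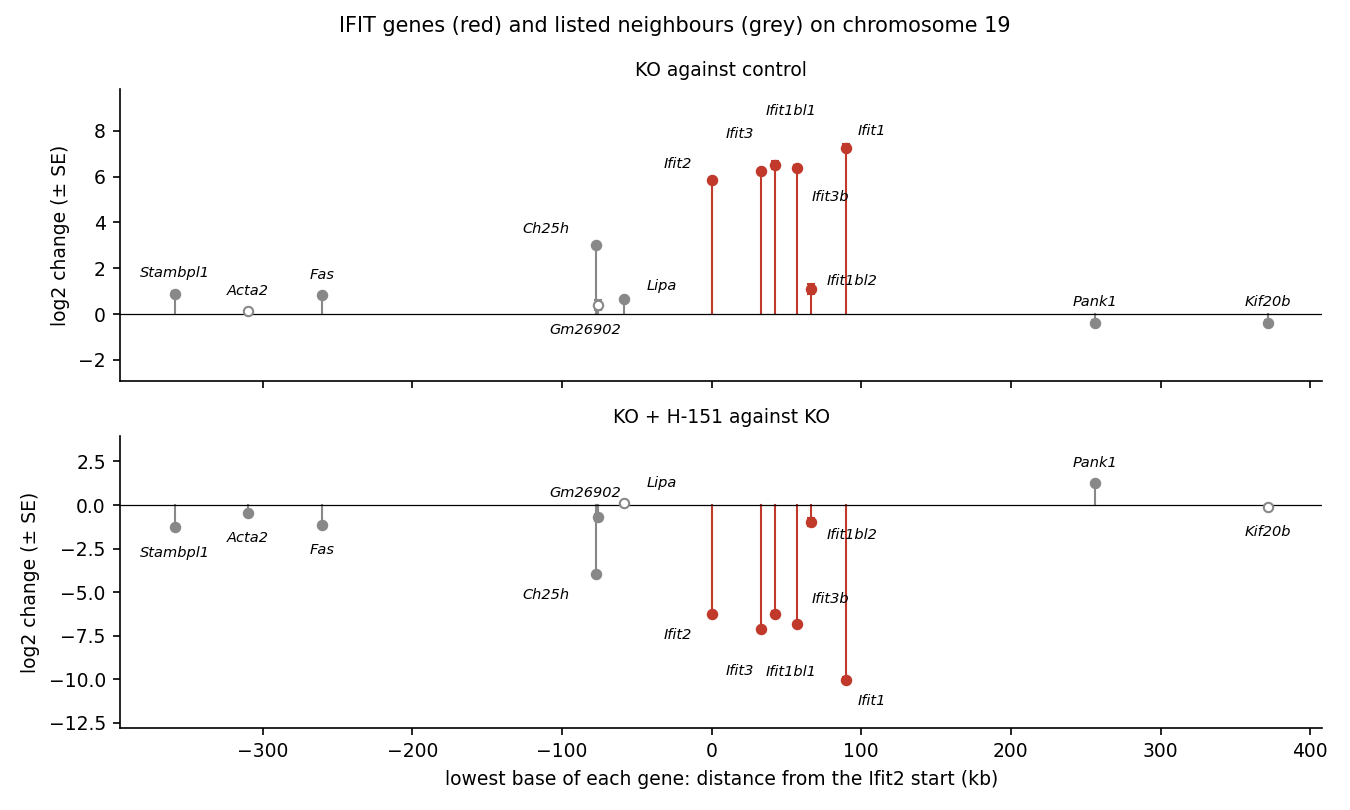
Log2 change of the IFIT genes and of the listed genes within 500 kb of them, plotted by the distance in kb of each gene's lowest base from the Ifit2 start, with standard errors, for KO against control and KO + H-151 against KO. Filled points passed the test. Apart from Ifit1bl2, the IFIT genes lie at or beyond 5.84 and -6.23, while of the neighbours Ch25h moves furthest, with 3.01 and -3.97.

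Genes known to act upstream of IFIT transcription were followed in a list of 17 interferon signalling genes. In KO against control 12 of 17 were called higher and 0 lower (median log2 change 1.57), against 18.2% and 14.2% of all genes tested. In KO + H-151 against KO 0 were called higher and 12 lower (median -1.92), against 19.4% and 21.4%. Ifnb1, interferon beta, had 65 reads over the 2 KO libraries and 0 over the KO + H-151 and the control libraries. It reached the minimum level for testing only through the KO libraries. Its calls, included in the counts above, could therefore only be a rise in KO and a fall with H-151. Against a floor of 3 reads over a group it was at least 29.2-fold lower in KO + H-151 than in KO, and at least 26.04-fold higher in KO than in control. These bounds, and the intervals given elsewhere, cover counting error only. Stat2 and Irf9, whose products belong to the complex that binds the element searched for above, averaged 38.5 and 39.97 scaled CPM in KO + H-151, 416 and 201 in KO and 50.02 and 66.9 in control libraries. Their log2 changes were 3.04 and 1.57 in KO against control and -3.40 and -2.30 in KO + H-151 against KO, all called. Irf7, which amplifies the interferon response, averaged 3.46, 189 and 9.88 scaled CPM in KO + H-151, KO and control libraries, and Irf1, another activator, averaged 41.8, 974 and 32.1. Usp18, which damps interferon receptor signalling, averaged 0.955, 377 and 7.85 scaled CPM in the same order, and its log2 changes of 5.42 and -7.60 were both called.

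The list also holds the sensing genes. Cgas averaged 10.3 scaled CPM in KO + H-151, 45.6 in KO and 9.99 in control libraries, and Sting1, the target of H-151, averaged 36.0, 72.2 and 35.9. Both were called in the first 2 comparisons (log2 changes 2.09 and 0.99 in KO against control, -2.05 and -0.98 in KO + H-151 against KO). In KO + H-151 against control they were not called, with limma adjusted p = 0.883 for Cgas and 0.992 for Sting1. Irf3, which STING signalling activates by phosphorylation, averaged 44.3, 39.0 and 40.6 scaled CPM and was called in none of the comparisons. Jak1, the gene of the list with the highest level, averaged 576, 558 and 532 and was not called either, although Irf3 and Jak1 were called higher in KO + H-151 against KO with quantile normalization and total-count scaling. In KO + H-151 against control, where 11.5% of all genes tested were called higher and 11.4% lower, 2 of the 17 were called higher and 5 lower. Among these, Irf7, Irf9 and Usp18 were lower, as Ifit1 was, with log2 changes of -1.29, -0.73 and -2.18 and limma adjusted p of 9.06e-07, 2.61e-06 and 1.08e-08.

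Other interferon-stimulated genes formed a list of 25, named RNA-directed, of which 23 were listed and tested. Many of their products act on RNA, but not all do. All 23 were called higher in KO against control (median log2 change 3.04), against 18.2% of all genes tested. All 23 were called lower in KO + H-151 against KO (median -3.90), against 21.4%. Oas1a, Oas1g, Oas2, Oas3, Oasl1 and Mx1 reached the minimum level for testing only through the KO libraries. Their calls could therefore only be a rise in KO and a fall with H-151. The list was also chosen with earlier results of these data known. Rsad2, viperin, averaged 3.15 scaled CPM in KO + H-151, 6408 in KO and 6.50 in control libraries, with log2 changes of 9.81 and -10.63. Ifih1, the RNA sensor MDA5, averaged 11.0, 726 and 15.1 scaled CPM in the same order, Isg15, a ubiquitin-like modifier, 6.79, 1476 and 39.2, and Oasl1, an OAS-like protein, 0.192, 339 and 0.467. Against control, KO + H-151 cells had 2 called higher and 13 lower (median -0.43), against 11.5% and 11.4% of all genes tested. The lower ones with the smallest p were Isg15 (log2 change -2.37), Oasl2 (-1.95) and Isg20, an exonuclease (-0.95). One of the higher genes was Oas1c (0.56), named after its value was seen. The count of higher genes was 1 in 14 of the 18 alternatives. Rigi and Trex1 were not analysed here.

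The cap and initiation machinery that IFIT proteins meet was followed in 30 genes for capping, cap methylation, decapping and the eIF3 complex, of which 29 were tested and Eif3j2 was not analysed. In KO against control 3 of 29 were called higher and 0 lower, with a median log2 change of 0.07, against 18.2% higher and 14.2% lower over all genes tested. The 3 were Dcp2, the decapping enzyme (132 scaled CPM in KO, against 26.5 in control libraries, log2 change 2.27), Cmtr1, which adds the cap ribose methylation that IFIT1 tells apart (23.3 against 7.78, log2 change 1.48), and Xrn1, the exonuclease that degrades decapped RNA (133 against 60.0, log2 change 1.14). With H-151, 8 of 29 were called lower than in KO and 1 higher, against 21.4% of all genes tested called lower and 19.4% higher. The same 3 genes were among the 8, with log2 changes of -2.40 for Dcp2, -1.63 for Cmtr1 and -1.07 for Xrn1, and averaged 24.3, 6.88 and 63.1 scaled CPM in KO + H-151 libraries. The other 5 were Eif3c, Eif3i, Eif3k, Eif3l and Eif3m, subunits of eIF3, and the higher one was Nudt16 (log2 change 0.40), a decapping enzyme. The lower calls were 3, those of Dcp2, Cmtr1 and Xrn1 alone, with quantile normalization, with total-count scaling and when the variance prior had no trend, and 5 without KO replicate 2. The higher call was lost without KO replicate 2 and without KO + H-151 replicate 2. Eif3a, the subunit with the highest level, averaged 915, 988 and 962 scaled CPM in KO + H-151, KO and control libraries and was not called. In KO + H-151 against control Eif3c, Eif3i and Eif3l were called lower (log2 changes -0.20, -0.21 and -0.25), calls that were lost in 2 to 11 alternatives, all 3 of them without control replicate 1. With quantile normalization and with total-count scaling, 5 and 6 of the 29 were called lower in KO against control.

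**Figure D5:**
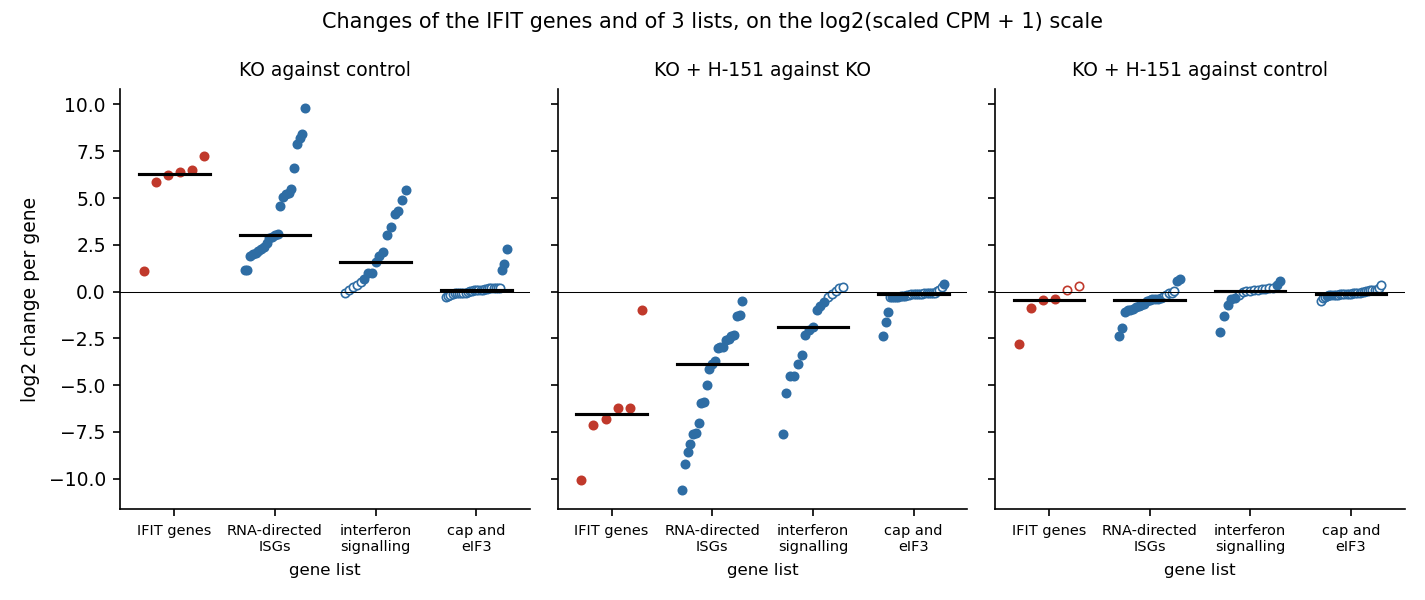
Log2 change of each tested gene of the IFIT family and of the 3 lists, as points that are filled where they passed the test, with the median as a line, on the log2(scaled CPM + 1) scale. Medians for KO against control are 6.31 for the IFIT family, 3.04 for RNA-directed interferon-stimulated genes, 1.57 for interferon signalling and 0.07 for cap and eIF3 genes.

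Over all promoters, genes with the GAAANNGAAA core were called higher in KO against control in 149 of 394 cases (37.8%), against 17.2% of the 9873 tested genes whose windows lacked it. Of the genes with the core 44.9% were called lower in KO + H-151 against KO, against 20.2% of those without it. Ifit2, which had none in its 2 windows, was called in both comparisons like the members that had it. Sequence outside the windows was not searched, so Ifit2 may hold the core elsewhere.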

How the data were processed

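RNA of 6 libraries of primary mouse dermal fibroblasts was made into QuantSeq 3' libraries, according to the labels' protocols. The submitters' processing notes name mm10, STAR 2.5.3a, featureCounts and edgeR, while the gene annotation, strand setting and treatment of reads with several matches are not given in the sources used here. The treatment protocol of the labels spells the inhibitor H-15 once. The deposited values are a scaled signal per gene and library, CPM computed by the authors with an effective library size, and the test planned for CPM was used for them. All values were whole multiples of 1 step per library within a tolerance of 0.0006, so whole reads were recovered for 100% of them. Depth was 12444986 to 15308100 reads.

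Groups were taken from the labels. Values were transformed to log2(scaled CPM + 1), and the 13648 genes that reached 1 scaled CPM in 2 or more libraries were tested with limma 3.58.1 in R 4.3.3 (1 mean per group over all 6 libraries, trended variance moderation, 3 residual degrees of freedom, moderated to 15.7). Benjamini-Hochberg adjustment covered every tested gene, and calls were made at 0.05. The code was tested on simulated data. Low genes have their changes understated on this scale: on recovered reads, edgeR gave log2 changes of 7.47 for Ifit1bl1 and 1.99 for Ifit1bl2 in KO against control. Reads per gene have exact Poisson intervals and shares have Wilson intervals, at 95%, which cover counting error only. Named genes were all members, Yap1 and Wwtr1, for each list and comparison the 3 genes of smallest p and the 1 of highest level, 8 named pathway genes, listed genes near the cluster, and the 3 nearest profiles of each member; values of some of these genes are not reported here. The members and lists were chosen with earlier results of these data known. Alternatives were other pseudocounts, filters, scalings, fits, edgeR 4.0.16, DESeq2 1.42.0, a replicate term and each library left out.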

Additional observations from a re-analysis of the deposited data

How the results depend on the processing

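Of 16 called IFIT changes 14 kept their call and direction in every alternative that gave a value, and 2, Ifit2 and Ifit3b in KO + H-151 against control, lost theirs. There the number of members called lower was 4, and 2 when only the 2 groups were fitted, without a trend in the variance, and without control replicate 2, KO replicate 1 or KO replicate 2 (2 to 4 over the libraries left out); the cause was not tested. With only genes that average 10 or more scaled CPM kept, Ifit1bl2 was not tested and 5 members were called in each of the other comparisons. Over all genes in KO against control, 1938 were lower, and 1266 with that filter, 2987 with quantile normalization, 4053 with total-count scaling, 1217 by DESeq2 and 1165 to 2186 with a library left out. For KO + H-151 against KO, 2643 were higher, and 1676 with that filter and 4767 with total-count scaling, which called 1930 lower in place of 2923. For KO + H-151 against control, 1570 were higher and 951 to 1373 with a library left out, the fewest without control replicate 2; 1562 were lower, 937 without a trend and 924 to 1499 with a library left out. edgeR on recovered reads called 2423 higher and 1851 lower in KO against control, 2614 and 2899 in KO + H-151 against KO, and 1626 and 1585 in KO + H-151 against control.

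Whether same-numbered libraries shared animals or cultures is not known here, and correlations of their deviations (-0.07, -0.13 and 0.15) cannot settle it. With the replicate number as a block, 2430 genes were higher and 1887 lower in KO against control. The counts were 2599 and 2864 in KO + H-151 against KO, and 1513 and 1500 in KO + H-151 against control. IFIT counts were as before. The crossed pairing, added after seeing the data, gave 3055 and 3314 in KO + H-151 against KO.

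Of the named genes that were no members, 80 of 94 called changes kept their call throughout. Several list counts moved by over 1.5 times. Cap and eIF3 genes in KO against control were 3 higher, and up to 5, and 0 lower, and up to 6. In KO + H-151 against KO they were 1 higher, and 0 to 2, and 8 lower, and as few as 3. Against control, KO + H-151 cells had 0 of them higher, and up to 1, and 3 lower, and 0 to 8. Interferon signalling genes called higher in KO + H-151 against KO were 2 with quantile normalization and 3 with total-count scaling in place of 0, and against control 1 in place of 2 without a trend. RNA-directed genes called higher in KO + H-151 against control were 1 in place of 2 in 14 alternatives. Uncalled changes that reversed their sign, on the log2 scale, were as follows. In KO against control, Eif3a reached -0.0188 with median scaling, -0.129 with quantile normalization and -0.126 with total-count scaling, Jak1 -0.121 and -0.0982 and Acta2 -0.291 and -0.0395 with the last 2, and Irf3 0.00895 without KO replicate 2 (-0.122 without KO replicate 1). In KO + H-151 against KO, Eif3a reached 0.163 with quantile normalization and 0.0676 with total-count scaling, Jak1 -0.000389 without KO replicate 2 and -0.0378 without KO + H-151 replicate 2 (0.126 without replicate 1), and Kif20b 0.0495 with total-count scaling, 0.0461 without KO replicate 1 and 0.0601 without KO + H-151 replicate 1 (-0.306 without replicate 2). In KO + H-151 against control, Ifit1bl2 reached -0.0982 without KO + H-151 replicate 1 (0.302 without replicate 2), Eif3a 0.0342 with quantile normalization, and Cgas -0.0913 without control replicate 2 and -0.0937 without KO + H-151 replicate 1 (0.169 without replicate 2). Sting1 reached -0.0291 with median scaling, -0.0172 with quantile normalization, -7.96e-06 by DESeq2, -0.0427 without control replicate 2 and -0.0868 without KO + H-151 replicate 2 (0.0912 without replicate 1). Depth limits Ifit1bl1 and Ifit1bl2 outside KO cells, where they had 7 to 23 reads per library.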

Other observations

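Ifit1 differed between the 2 KO + H-151 libraries beyond counting error, while the counting intervals of Ifit2, Ifit3 and Ifit3b overlapped. It had 233 reads in replicate 1 and 141 in replicate 2, or 15.2 scaled CPM (95% exact Poisson interval 13.3 to 17.3) and 8.82 (7.42 to 10.4), so that the intervals lie apart. In the same libraries Ifit2 had 147 and 155 reads, Ifit3 334 and 344 reads and Ifit3b 88 and 97 reads. Iigp1, the gene nearest to Ifit1 in profile, had 11.3 and 7.07 scaled CPM there, and Rsad2 had 4.05 and 2.25. The distance that picked Iigp1 includes these 2 libraries. Other interferon-stimulated genes differed the other way, such as Usp18 with 0.784 and 1.13 and Dhx58 with 1.44 and 2.88. In control libraries Ifit1 was higher in replicate 2, with 97.9 scaled CPM, than in replicate 1, with 75.1, and Ifit2, Ifit3 and Ifit3b were higher in replicate 2 as well. Whether same-numbered libraries of different groups belong together is not known here, and the cause of these differences was not tested.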
